A study of Mus musculus with 3 samples.

Results

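The genes described here encode the elastic fibre and its microfibrils, the lysyl oxidases, the small leucine-rich proteoglycans and the matricellular and adhesive glycoproteins of the extracellular matrix. The 50 members are a list of gene symbols, and all 50 were found among the 39304 rows of the table. The rule that lists them uses no measured value, but members and lists were chosen with earlier results of these data known. The libraries came from kidney glomeruli of wild type C57BL/6 males aged 8 weeks; the number of mice is not given in the labels. Glomeruli were collected with magnetic beads and dissociated, and a Fluidigm C1 instrument captured single cells and made their cDNA. Cell identity was set by qPCR of glomerular markers, and cDNA of 15 mesangial and 15 endothelial cells was mixed and split into 3 aliquots for sequencing. All 3 libraries are therefore aliquots of 1 cDNA pool, with no other condition. Their SD (n = 3 throughout) measures library construction and sequencing only, and which of the 2 cell types made a transcript cannot be told apart.

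Elastic fibres are built on fibrillin microfibrils. Tropoelastin is deposited on these with the help of fibulins, and lysyl oxidases crosslink it. Latent TGF-beta binding proteins tie growth factor to the same microfibrils. Small leucine-rich proteoglycans coat collagen and bind growth factors, and matricellular glycoproteins adjust how cells hold to the matrix rather than giving it strength. In the glomerulus the mesangial cell lies in such a matrix between the capillary loops, while the endothelium rests partly on it and partly on the capillary basement membrane.

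The deposited unit was FPKM, in which a gene's reads are divided by its length in kilobases and by the library's reads in units of 1000000. A gene was called detected at 1 FPKM or more in every aliquot. The library totals implied by the FPKM steps were 9141422, 10427635 and 10976563 reads in aliquots 1, 2 and 3. Mesangial markers were detected for 9 of 10 genes (summed level 8719 to 9163 FPKM over the aliquots), endothelial markers for 10 of 11 (2628 to 2678 FPKM, with Cldn5 listed at 0), and podocyte markers for 7 of 10 (291 to 308 FPKM, none at 0). Smooth muscle and renin cell markers were detected for 7 of 8 (1599 to 1698 FPKM, Cnn1 at 0) and fibroblast markers for 4 of 8 (418 to 427 FPKM, with Col1a1, Col3a1, Dpt and Col14a1 at 0). A single gene gave most of each of these sums, Myl9 (mean 1471 FPKM) and Cd34 (mean 353 FPKM). The next highest genes were Acta2 (72.8 FPKM) and Pdgfra (48.1 FPKM). The parietal epithelium and tubule lists had 0 of 5 and 0 of 6 detected, and macrophages 1 of 6, Fcer1g with 66.1 to 69.5 FPKM. In such a pool, fewer cells of a type and less RNA per cell cannot be told apart. Several genes that most cells use, among them Srsf4, Cox20 and Mrps22, were also listed at 0 in each aliquot, so a 0 is given only as listed and not as absence of the transcript.

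Of the 50 members 16 were detected, 7 lay above 0 but under the limit and 27 were listed at 0 in each aliquot. The detected share of 32% stood beside 36.4% of the 21303 protein-coding rows and 21.7% of all rows. The share listed at 0 was 54% of the members, beside 54.6% of protein-coding rows and 71.7% of all rows. At a mean of 10 FPKM or more there were 11 members (22%, beside 24.7% of protein-coding rows), and at 100 FPKM or more there were 2 (4%, beside 5.32%). The median over all 50 members was 0 FPKM, as it was over all protein-coding rows. As a set the members were thus listed about as often as protein-coding genes in general, and the description that follows is of which members carried the signal.

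**Figure D1:**
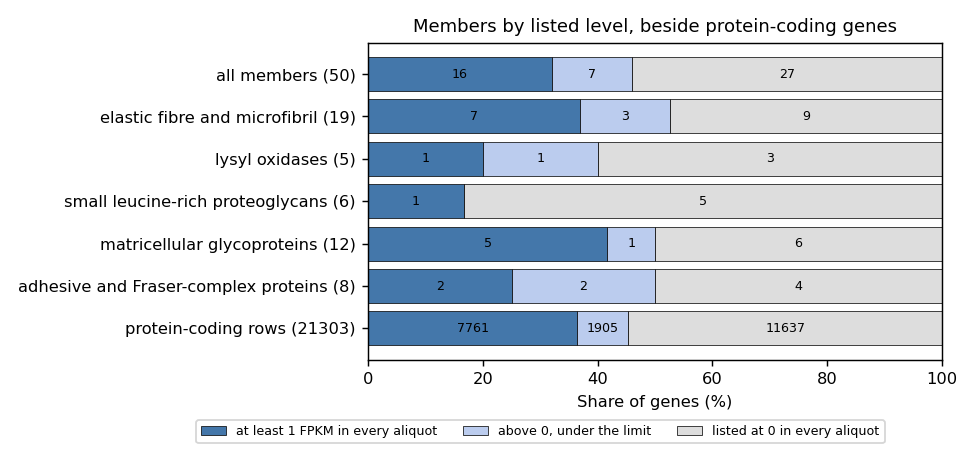
Share of genes (x axis, percent) at 1 FPKM or more in every aliquot, above 0 but under that limit, and listed at 0, for all 50 members, for their 5 role groups and for protein-coding rows; numbers inside bars are gene counts. The members' bar (16, 7 and 27 genes) has nearly the proportions of the protein-coding bar, and the leucine-rich proteoglycans have 5 of 6 members at 0.

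A pair of genes carried most of it. Biglycan (Bgn), a leucine-rich proteoglycan, and Sparc, a collagen-binding glycoprotein, together took 71.4% of the 63440 reads recovered for the members, Bgn alone 43.3%. All members together took 0.211%, 0.214% and 0.219% of recovered reads in aliquots 1, 2 and 3, with exact Clopper-Pearson 95% intervals of 0.208% to 0.214%, 0.212% to 0.217% and 0.216% to 0.221%. Intervals cover counting error only, since reads of amplified cDNA are not independent molecules.

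Among detected members the order by mean FPKM was Bgn, Sparc, Mgp, Efemp2, Ltbp1, Mmrn2, Ltbp4, Thbs1, Loxl3, Emilin1, Fbn1, Egflam, Tnc, Sparcl1, Npnt and Mfap2. Of the 15 neighbouring pairs in this order 12 had ranges over the aliquots that did not overlap. The ranges cover spread over aliquots at the deposited gene lengths only. The order between genes also depends on the length used, as given below. The ranges of Mmrn2 and Ltbp4, of Ltbp4 and Thbs1, and of Egflam and Tnc overlapped. Several sets of related genes had a single relative detected: fibrillin 1 and not fibrillin 2, Efemp2 and not Efemp1, Emilin1 and not Emilin2. Likewise Mmrn2 was detected and not Mmrn1, Loxl3 and not the other 4 oxidases, and Bgn and not the other 5 proteoglycans. Other sets differed. Ltbp1 with Ltbp4 and Sparc with Sparcl1 were detected together, and Fbln1, Fbln2, Smoc1 and Smoc2 were not detected. Of protein-coding rows 36.4% were detected, and whether relatives split more often than unrelated genes was not tested. A gene not detected here is not shown to be absent.

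**Figure D2:**
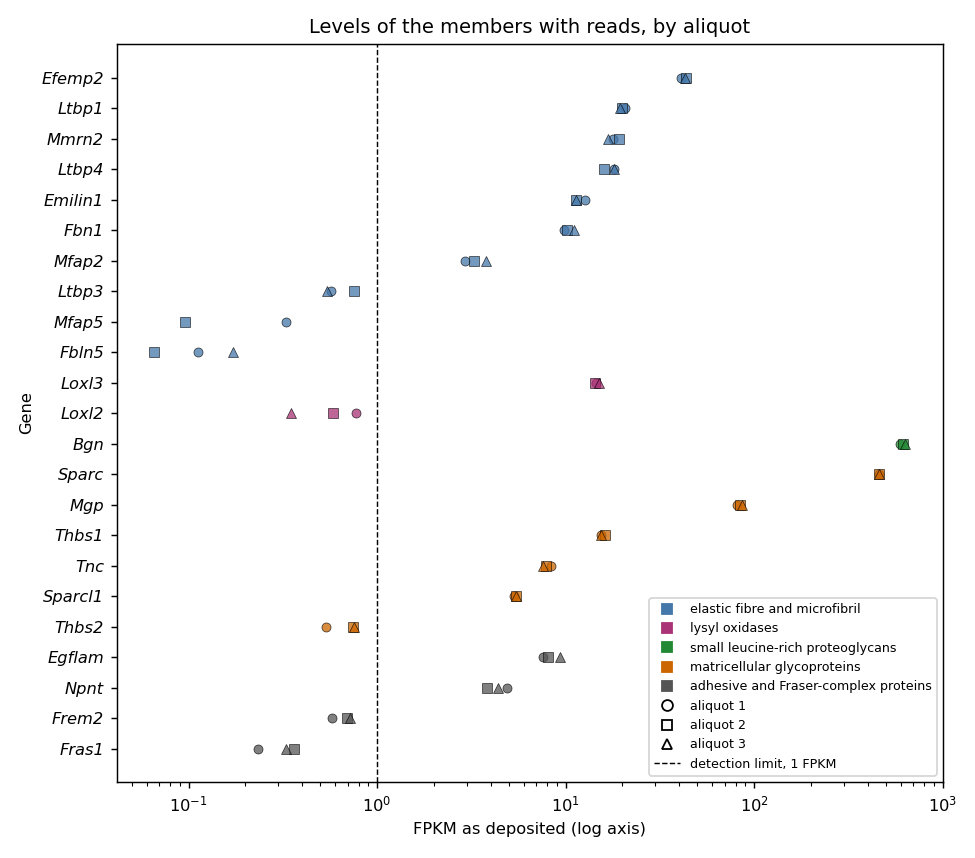
FPKM as deposited (x axis, log scale) in aliquots 1, 2 and 3 for the 23 members with reads, coloured by role group; the dashed line is the detection limit of 1 FPKM. Bgn (614 FPKM) and Sparc (459 FPKM) stand apart on the right, 7 genes lie left of the line, and the 0 of Mfap5 in aliquot 3 cannot be drawn on a log axis.

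Promoter windows were set side by side because the proteoglycans divided most sharply, with Bgn high and its relatives listed at 0. RefSeq start sites gave windows for 32 of the 50 members, and the 250 bases before the start are used here, the first listed window where a gene has several. Shown are Bgn and the detected fibulin Efemp2, then asporin (Aspn) and osteoglycin (Ogn), proteoglycans listed at 0, all on the plus strand of GRCm38.p6 and written 5′ to 3′ with CG dinucleotides in capitals. The windows are chrX:73483351-73483600, chr19:5473696-5473945, chr13:49544193-49544442 and chr13:49607765-49608014 in that order.
Bgn: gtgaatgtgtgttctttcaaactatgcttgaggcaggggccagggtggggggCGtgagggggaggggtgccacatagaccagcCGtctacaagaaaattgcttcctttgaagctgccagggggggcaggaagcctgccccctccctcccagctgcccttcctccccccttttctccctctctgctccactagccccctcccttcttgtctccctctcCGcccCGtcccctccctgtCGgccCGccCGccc
Efemp2: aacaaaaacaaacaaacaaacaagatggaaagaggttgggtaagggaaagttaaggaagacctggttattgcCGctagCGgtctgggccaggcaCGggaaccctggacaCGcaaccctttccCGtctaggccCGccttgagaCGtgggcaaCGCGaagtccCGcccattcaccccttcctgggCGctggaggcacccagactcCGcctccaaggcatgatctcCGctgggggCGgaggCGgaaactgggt
Aspn: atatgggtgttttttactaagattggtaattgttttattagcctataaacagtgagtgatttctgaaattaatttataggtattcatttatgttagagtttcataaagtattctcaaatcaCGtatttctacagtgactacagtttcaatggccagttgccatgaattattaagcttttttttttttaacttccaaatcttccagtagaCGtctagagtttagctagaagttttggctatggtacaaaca
Ogn: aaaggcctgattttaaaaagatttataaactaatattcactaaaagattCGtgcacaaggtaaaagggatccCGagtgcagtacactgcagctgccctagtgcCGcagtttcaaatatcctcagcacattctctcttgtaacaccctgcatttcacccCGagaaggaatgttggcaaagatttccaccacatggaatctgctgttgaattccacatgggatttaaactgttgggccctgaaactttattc

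The Bgn window held 7 CG dinucleotides and was 64.4% G or C, and that of Efemp2 held 15 at 59.2%. The Aspn and Ogn windows held 2 and 4, at 30% and 42% G or C. Relative to the number that base composition gives, CG dinucleotides were at a ratio of 0.28 for Bgn and 0.69 for Efemp2, and of 0.36 for Aspn and 0.37 for Ogn, so the Bgn window was G- and C-rich but had the lowest of these 4 ratios. Fmod, the remaining proteoglycan at 0 with a window, had a ratio of 0.12 at 51.2% G or C and no TATAAA, so Aspn and Ogn do not stand for all relatives at 0. Dcn and Lum, also listed at 0, had no window and are not part of this comparison. Across the members, the median ratio was 0.63 for the 11 detected genes with a window and 0.37 for the 17 listed at 0. Among those detected it ran from 0.18 for Emilin1 to 0.69 for Egflam, with Sparc at 0.22. The median ratio was 0.76 for detected protein-coding genes and 0.30 for those listed at 0, so the members' medians differed in the direction seen over the whole table. The letters TATAAA, searched on both strands, were in 1 of 11 windows of detected members (Tnc) and in 4 of 17 windows of members at 0 (Aspn, Ogn, Spp1 and Vtn), beside 6.18% and 16.6% of the windows of protein-coding genes detected and at 0 and 13.0% of all promoter windows of that length. The letters GGGCGG, the core of a GC box, were in 7 of 11 and 6 of 17, beside 61.4% and 30.5% of those protein-coding windows and 32.9% of all. A match is a description of the letters in this window, and not a measured binding site.

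The elastic fibre and microfibril group had 7 of 19 members detected and 9 listed at 0. The main structural proteins were unequal. Elastin (Eln), the elastic core protein, was listed at 0 in each aliquot, while fibrillin 1 (Fbn1, ENSMUSG00000027204, chromosome 2, 125300594 to 125507993 in GRCm38, minus strand), the backbone of microfibrils, had 9.84, 10.2 and 11.1 FPKM in aliquots 1, 2 and 3. Fibrillin 2 (Fbn2), its mainly developmental relative, was listed at 0. Of the exonic bases of Fbn1, 20.1% are shared with another annotated gene, and whether strand was used in counting is not given in the sources used here.

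Among the fibulins, Efemp2 (fibulin 4, ENSMUSG00000024909, chromosome 19, 5473954 to 5482517, plus strand), which is needed for elastic fibre assembly and binds lysyl oxidase, had 41.2, 43.4 and 42.9 FPKM. At the deposited gene lengths Efemp2 was the highest of this group and stood at rank 2593 of the table. Its lead depends on its length, which is not settled, as given below. Fbln5, another assembly fibulin, had 0.113, 0.0658 and 0.172 FPKM (21 reads in all), and Fbln1, Fbln2 and Efemp1 were listed at 0. The fibulin signal was thus almost wholly that of Efemp2.

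Of the latent TGF-beta binding proteins 2 of 4 were detected, at similar levels. Ltbp1, which anchors latent TGF-beta in the matrix, had 20.6, 20.0 and 19.5 FPKM. Ltbp4, whose long form also guides elastic fibre assembly, had 18.0, 15.9 and 18.0 FPKM, with aliquot 2 below the others. The aliquots' values of Ltbp4 did not differ beyond counting error (chi-square test with Benjamini-Hochberg adjustment, adjusted p = 0.518). Ltbp3 lay under the limit with 0.569, 0.758 and 0.544 FPKM, and Ltbp2, a microfibril protein that does not bind latent TGF-beta, was listed at 0.

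The detected multimerin, emilin and Mfap genes had low to middle levels. Multimerin 2 (Mmrn2), an endothelial matrix glycoprotein, had 17.8, 19.1 and 16.8 FPKM, and its platelet relative Mmrn1 was listed at 0. Emilin1, which lies between elastin and microfibrils, had 12.6, 11.4 and 11.4 FPKM, and Emilin2 was listed at 0. Mfap2, a small microfibril protein that binds fibrillin, had 2.92, 3.26 and 3.76 FPKM and was the lowest detected member (84 reads in all). Mfap5 had 0.327, 0.0956 and 0 FPKM, which came from 4 reads, and Mfap4 was listed at 0.

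Of the 5 lysyl oxidases, copper enzymes that crosslink elastin and collagen, only Loxl3 was detected at the limit of 1 FPKM. It had 14.5, 14.4 and 15.1 FPKM in aliquots 1, 2 and 3 (945 reads in all) and supplied 94.7% of the group's reads. Annotated exons of other genes cover 11.6% of its exonic bases. Loxl2 had 0.774, 0.586 and 0.351 FPKM from 53 reads, and Lox, Loxl1 and Loxl4 were listed at 0. The aliquots' values of Loxl2 did not differ beyond counting error (chi-square test with Benjamini-Hochberg adjustment, adjusted p = 0.519).

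Among the 6 small leucine-rich proteoglycans all reads belonged to Bgn (ENSMUSG00000031375, chromosome X, 73483602 to 73495933, plus strand), whose core protein carries chondroitin or dermatan sulfate chains. It had 592, 614 and 636 FPKM in aliquots 1, 2 and 3, a mean of 614 ± 21.9 FPKM, and stood at rank 108 of the table. Decorin (Dcn), its closest relative and a regulator of collagen fibril width, was listed at 0, as were lumican (Lum), fibromodulin (Fmod), Ogn and Aspn. These relatives lie in clusters on the genome. Of all protein-coding rows 54.6% were listed at 0, and whether neighbours share a 0 more often than other genes was not tested. Dcn, Lum, Kera and Epyc lie within 203 kb of chromosome 10, all at 0. Optc, Prelp and Fmod lie within 151 kb of chromosome 1, also at 0. In the cluster of Ecm2, Aspn, Omd and Ogn, which spans 120 kb of chromosome 13, Ecm2 at the edge had 0.639, 0.960 and 0.431 FPKM and the other genes were at 0. None of 11 further leucine-rich proteoglycan genes reached the limit, and 8 of them were listed at 0.

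The matricellular group had 5 of 12 members detected. Sparc (ENSMUSG00000018593, chromosome 11, 55394500 to 55423183, minus strand) had 460, 458 and 460 FPKM, a mean of 459 ± 1.21 FPKM, at rank 160. Its relative Sparcl1 (hevin), known from endothelial and mural cells, had 5.30, 5.48 and 5.44 FPKM. The log2 ratio of Sparc to Sparcl1 was 6.41 ± 0.0272, or 84.9-fold, at the deposited gene lengths. At the longest annotated transcript lengths the ratio was 5.38 ± 0.0272. Smoc1 and Smoc2, more distant relatives on the list, were listed at 0.

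Matrix Gla protein (Mgp), an inhibitor of calcification in the vessel wall, had the next highest level of all members after Bgn and Sparc, with 81.0, 84.7 and 86.8 FPKM. It is a small gene, so this level came from 1541 reads, fewer than the 2519 of Fbn1 at a lower FPKM. The log2 ratio of Sparcl1 to Mgp, both known from vessel walls, was -3.96 ± 0.0327. Thrombospondin 1 (Thbs1), which can activate latent TGF-beta, had 15.4, 16.1 and 15.5 FPKM. Thbs2 had 0.536, 0.745 and 0.754 FPKM, the highest of the members under the limit, and Thbs3 was listed at 0. Tenascin C (Tnc), an anti-adhesive glycoprotein of remodelling matrix, had 8.36, 7.89 and 7.60 FPKM, while Tnxb, periostin (Postn) and osteopontin (Spp1) were listed at 0. The detected Sparcl1 and the gene Spp1, at 0, lie within 362 kb of chromosome 5, and Thbs2 and Smoc2 within 415 kb of chromosome 17.

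The remaining 8 members, which belong to none of the 4 named groups, are adhesive proteins, a large proteoglycan and the Fraser complex. Egflam (pikachurin), a ligand of dystroglycan, had 7.63, 8.07 and 9.32 FPKM. Nephronectin (Npnt), the ligand of integrin alpha 8 beta 1 in the kidney, had 4.90, 3.84 and 4.36 FPKM. Podocytes are a known source of nephronectin. The pooled cells were chosen by qPCR as mesangial or endothelial, yet of 10 podocyte markers 7 were detected, with Wt1 (101 ± 3.18 FPKM) the highest. Ptpro, Magi2 and Lmx1b lay under the limit with means of 0.887, 0.916 and 0.237 FPKM. The part of these transcripts in the Npnt level was not tested. Of the Fraser complex, which joins epithelium to stroma in the embryo, Frem2 had 0.576, 0.691 and 0.723 FPKM and Fras1 0.235, 0.363 and 0.328 FPKM, under the limit, and Frem1 was listed at 0. Fibronectin (Fn1), vitronectin (Vtn) and versican (Vcan) were listed at 0 in each aliquot.

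Receptors for these matrix proteins were among the genes set beside them, and 15 of 21 were detected. Integrin alpha 8 (Itga8, 667 ± 6.19 FPKM) and integrin beta 1 (Itgb1, 551 ± 3.57 FPKM), which pair as the nephronectin receptor, led them, followed by syndecan 4 (Sdc4, 440 ± 4.09 FPKM) and Tlr4 (153 ± 5.79 FPKM), a receptor of soluble biglycan. Tlr2, on the same list, was listed at 0 in each aliquot. The log2 ratio of Npnt to Itga8 was -7.26 ± 0.170, the ligand far below its receptor subunit. Egflam lay below dystroglycan (Dag1, 25.5 ± 0.690 FPKM), with a log2 ratio of -1.62 ± 0.129. The fibronectin receptor subunit Itga5 was listed at 0, as was its ligand Fn1. The other integrin subunits on the list were detected, among them Itga4 (49.3 ± 2.52 FPKM) and Itgav (33.9 ± 1.11 FPKM), except Itgb3 with a mean of 0.634 FPKM.

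Genes that store and sense TGF-beta were detected in 7 of 12 cases. Eng (286 ± 4.01 FPKM), Tgfbr3 (268 ± 0.855 FPKM), Tgfbr2 (30.4 ± 1.19 FPKM) and Acvrl1 (29.1 ± 2.57 FPKM), all receptors or co-receptors, were the highest. The receptor Tgfbr1, however, lay under the limit with 0.567, 0.536 and 0.800 FPKM. The integrin subunit Itgb8 (mean 0.821 FPKM) was also under it, and Itgb6 was listed at 0. Of the ligands that Ltbp1 can hold, Tgfb3 had 4.59 ± 0.272 FPKM and Tgfb2 3.43 ± 0.122 FPKM, and Tgfb1 had 0.292, 0.171 and 0.162 FPKM. The mean of Ltbp1, 20.1 ± 0.535 FPKM, lay above each ligand.

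Of 26 accessory and processing genes of the elastic fibre 12 were detected. The highest were the procollagen proteinase enhancer Pcolce (58.3 ± 1.99 FPKM), Ctsa (44.4 ± 1.53 FPKM), a lysosomal protein that also belongs to the elastin receptor complex, Mfap1b (40.5 ± 0.318 FPKM), a splicing factor named for microfibrils and nearly identical to Mfap1a, and Atp7a (34.4 ± 0.681 FPKM), which loads copper into lysyl oxidases. Reads of Mfap1b and Mfap1a cannot be told apart with certainty. Glb1 and Neu1, on the list beside Ctsa, had means of 6.69 and 0.271 FPKM, that of Neu1 under the limit. Other matricellular genes had 3 of 16 detected: Fstl1 (1591 ± 39.4 FPKM), Ccn2 (318 ± 10.2 FPKM) and Ecm1 (75.1 ± 3.12 FPKM). Fstl1, a secreted relative of Sparc, thus exceeded every member of the list.

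The spread over the aliquots was then set against counting error. The coefficient of variation of the detected members ran from 0.263% for Sparc to 12.7% for Mfap2, with a median of 4.19%, and exceeded its counting error in 7 of 16. Recovered reads were compared with the numbers that library totals predict by a chi-square test with Benjamini-Hochberg adjustment over the 9120 genes with 30 reads or more. It called 1 of 21 members tested, beside 1.09% of all genes tested. The member was Bgn, with 7916, 9365 and 10208 reads in aliquots 1, 2 and 3. Its adjusted p by the chi-square test was 0.00278. Its lowest level was in the library with the smallest total and its highest in the library with the largest, and their part in the result was not tested. Without aliquot 1 or without aliquot 3 the call was lost (adjusted p = 0.527 and 0.323 by the same chi-square test), and without aliquot 2 it was kept (adjusted p = 0.000507).

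Calls were more frequent among deeply read genes: 10.5% of genes with at least 10000 reads were called, the class to which both Bgn and Sparc belong. Sparc, with 17802 reads, had a smaller spread than counting error alone gives on average (adjusted p = 0.991, chi-square test). Fbn1 and Mmrn2 had unadjusted chi-square p values of 0.0330 and 0.0442, which did not pass adjustment (0.378 and 0.420). Of the 45 other genes of these pathways tested, Fstl1 alone was called, with an adjusted chi-square p = 0.00674.

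**Figure D3:**
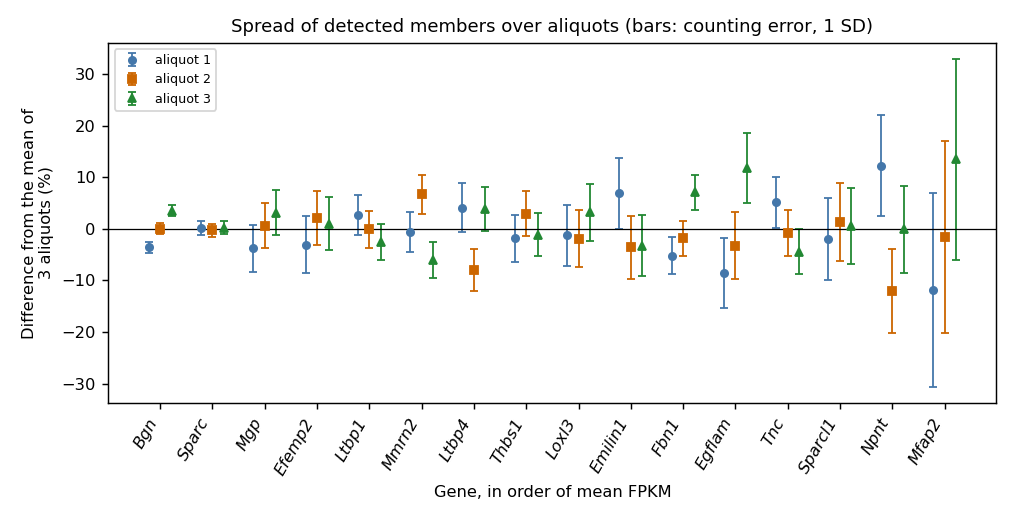
Difference of each aliquot from the mean of the 3 aliquots (y axis, percent) for the 16 detected members in order of mean FPKM; bars are 1 SD of counting error from the recovered reads. The aliquots of Bgn stand apart by more than their bars, those of Sparc coincide, and those of Mfap2 differ most but with the widest bars.

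Levels of different genes depend on the gene length by which reads were divided. For Bgn the values imply a length of 1462 bases, while its longest annotated transcript has 2666. Rescaled to the longest transcript, Bgn had 337 ± 12 FPKM, Sparc 253 ± 0.667 FPKM and Mgp 70.4 ± 2.45 FPKM, in the same order. For Efemp2 the length is not settled. The shortest length that makes its reads whole, 816 bases, gives 13.2 ± 0.359 FPKM rescaled, below Mmrn2 (17.7 ± 1.14 FPKM), while 2 and 3 times that length give 26.3 ± 0.719 and 39.5 ± 1.08 FPKM, above Mmrn2 and, at 3 times, close to the deposited 42.5 ± 1.16 FPKM. All 16 members stayed above the limit.

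**Figure D4:**
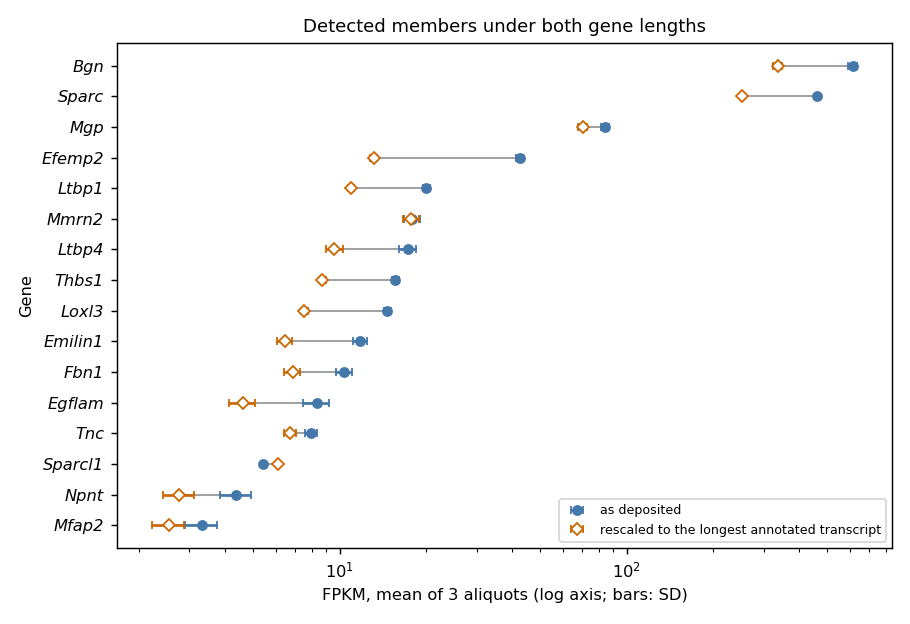
Mean FPKM of the 16 detected members (x axis, log scale; bars are the SD over 3 aliquots) as deposited and after rescaling to the longest annotated transcript. Bgn, Sparc and Mgp lead under both lengths, and Efemp2 is drawn at 13.2 FPKM rescaled with its shortest possible length, where 3 times that length would give 39.5 FPKM.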

How the data were processed

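RNA sequencing of 3 aliquots of 1 cDNA pool was analysed from the FPKM table that the authors deposited. Per the submitters' processing notes, TopHat2 2.0.12, HTSeq 0.6.1 and GRCm38 were used; for settings, strand use, annotation release and gene length the sources used here give nothing. A reference name table paired 37607 of the table's IDs with symbols, and coordinates came from GENCODE M21 (GRCm38). Members and lists were chosen with earlier results of these data known, and the 8 members that fall in none of the 4 role groups of the list form a group of their own.

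Low FPKM values step by what 1 read is worth. For genes under 0.5 FPKM the total that would make the value 1 read at the mean transcript length was computed, and the most frequent total of each aliquot was taken as its library total. Each gene's smallest length that made reads whole within 0.0001 was used, or a multiple within 1 base of the mean length, and this solved 11142 of 11142 genes above 0, with reads adding up to 96.7% of the totals. Reads of a gene can be too low by a whole factor. If a length cannot exceed the longest annotated transcript, this is possible for 1 member, Efemp2. For 2 members the implied length exceeds that transcript, so the bound is not strict and a factor for other members is not excluded. A count model was not fitted, because all libraries belong to 1 group. Chi-square tests used at least 30 reads and a threshold of 0.05, and were tested on simulated data. The named genes are all members, the up to 4 highest detected genes of each list and the genes of the pairs. Other genes named, such as Srsf4, Cox20, Mrps22, Itga5, Tgfbr1, Itgb6, Itgb8, Glb1, Neu1, Tlr2 and the markers at 0, were chosen after their values were seen. Python 3.11.15, pandas 2.3.3, NumPy 2.4.6, SciPy 1.17.1 and Matplotlib 3.10.9 were used.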

Additional observations from a re-analysis of the deposited data

How the results depend on the processing

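No paired analysis was possible because the series has a single group, whose replicate numbers only name aliquots. Of 134 alternative values 113 stayed within 1.5 times of a count or within 1 SD of a value, and none changed direction. With any value above 0 counted as detected, the lysyl oxidases had 2 members, the adhesive and Fraser-complex group 4, the other leucine-rich proteoglycans 3, the other matricellular genes 5 and the TGF-beta genes 11; at 5 FPKM the adhesive group had 1. The count of members beyond sampling noise was 0 to 1 when each aliquot was left out, and 3 of 21 by unadjusted p, beside 11.4% of all genes tested. Over all genes the chi-square test called 99, and 2, 98 and 65 without aliquots 1, 2 and 3. The members' share of reads, 0.215%, was 0.207% of library totals and 0.222% of summed FPKM. An alternative chosen after seeing the data gave Efemp2 2 or 3 times its shortest length: its rescaled level, 13.2 FPKM, was then 26.3 and 39.5 FPKM, the members' share 0.218% and 0.222%, and that of Bgn and Sparc among member reads 70.2% and 69.1%. On the log2(FPKM + 1) scale the ratio of Sparc to Sparcl1 was 6.17, of Sparcl1 to Mgp -3.73 and of Npnt to Itga8 -6.96. With the longest transcript lengths these were 5.38, -3.53 and -6.46, and that of Egflam to Dag1 was -2.09. Depth limits Mfap2 and the members under 1 FPKM, which rest on 4 to 252 reads.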

Other observations

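Gene lengths implied by the FPKM values can be set beside the annotation for the 23 members with reads. The implied length was within 1 base of the mean transcript length for 8 of them and above the longest annotated transcript for 2, Sparcl1 (3114 against 2759 bases) and Thbs2 (5922 against 5895 bases). Members listed at 0 shared exonic bases with another annotated gene in 10 of 27 cases, and detected members in 6 of 16. Their longest transcripts had medians of 3939 and 4036 bases. Over protein-coding rows, 23.0% of those at 0 and 37.1% of those detected shared exonic bases, and the medians were 2396 and 3559 bases.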
